A study of Homo sapiens with 26 samples.

Results

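The genes described here are those whose symbol belongs to a cell cycle or chromosome segregation family: cyclins and cyclin-dependent kinases (CDKs), CDC genes, MCM, ORC and NASP genes of replication, SMC, NCAP and STAG genes of condensin and cohesin, CENP genes, anaphase-promoting complex subunits, E2F and RBL regulators, and aurora, polo-like and BUB genes. They were found by matching gene names in 6 lists of RNA targets or responsive genes, without use of any measured value. Of 4083 genes named in the lists, 55 matched. The match is on names alone. In 7 of the 55 a family name is only the start of the name of another gene (CDC37L1, CDK5R1, CDK5RAP2, CDK5RAP3, CDKN2B-AS1, MCM3AP and PLK1S1); they are kept and called matched by name only. CDC37 carries a CDC name of its own and is not counted among the 7, although it acts as a cochaperone.

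The study sequenced RNA bound by EZH2, the methyltransferase of the Polycomb repressive complex PRC2. Its title names mispriming in reverse transcription, that is, priming at sites inside an RNA instead of at the ligated adapter. RNA immunoprecipitation (RIP), which sequences the RNA recovered with a protein, was done with an antibody to EZH2, with an IgG2a control antibody, and on input RNA. Small RNA was read in K562, a chronic myeloid leukaemia line (1 library each of EZH2, IgG and input), and in T98G and U87MG, both glioblastoma lines (2 libraries each of EZH2, IgG and input); these cells had no treatment. T98G also gave 6 libraries of long RNA (2 each of EZH2, IgG and input) and 1 EZH2 iCLIP library, a crosslinking variant of RIP. U87MG cells received siRNA against EZH2 (2 libraries) or against GFP, a gene the cells lack (2 libraries). One of the siEZH2 libraries has EZH3 in its treatment label and EZH2 in its title, and the title was followed.

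From these 26 libraries the authors deposited 6 lists of regions: called small RNA exons for each of the 3 lines, T98G targets among full-length RNA, U87MG introns scored as retained, and U87MG genes that differed between siEZH2 and siGFP. The lists hold no counts and no values per library, so the read depth is unknown, no spread between replicates could be computed and no test was run. Intervals are exact (Clopper-Pearson) 95% binomial intervals and cover counting error over genes or exons only. The lists name targets and hold no expression levels, so they cannot check the identity of a line. Of 8 fixed K562 markers none is listed anywhere. Of 8 glioblastoma markers CD44 is listed in K562 and T98G, EGFR in T98G, TNC in T98G and U87MG, and the others nowhere. EZH2 itself is not in the siEZH2 table, so the knockdown could not be checked there.

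A dividing cell licenses its replication origins with the origin recognition complex (ORC) and the MCM helicase, copies its DNA, holds the sister chromatids together with cohesin and compacts them with condensin. CDKs with their cyclins drive the steps. The kinetochore, built on CENPA nucleosomes, attaches chromosomes to the spindle, and the anaphase-promoting complex then marks securin and cyclins for destruction. E2F factors with the RB family switch the S phase genes on and off, and PRC2 is best known for placing repressive methyl marks on histone H3.

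The cell cycle genes were spread over all 6 lists. The T98G small RNA list named 29 of them among 2046 genes (1.42%), in 39 of 2573 exons. The K562 list named 7 of 384 genes (1.82%), the U87MG list 9 of 596 (1.51%), and the T98G full-length list 14 of 926 (1.51%). The retained intron list named 2 of 38 genes and 16 of the 1341 genes under siEZH2 were cell cycle genes (1.19%). Of the 55 genes 39 were in 1 list (70.9%), against 76.9% of all 4083 genes, 12 in 2 lists, 2 in 3 lists, and 2 (MCM7 and MCM3AP) in 4 lists.

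**Figure D1:**
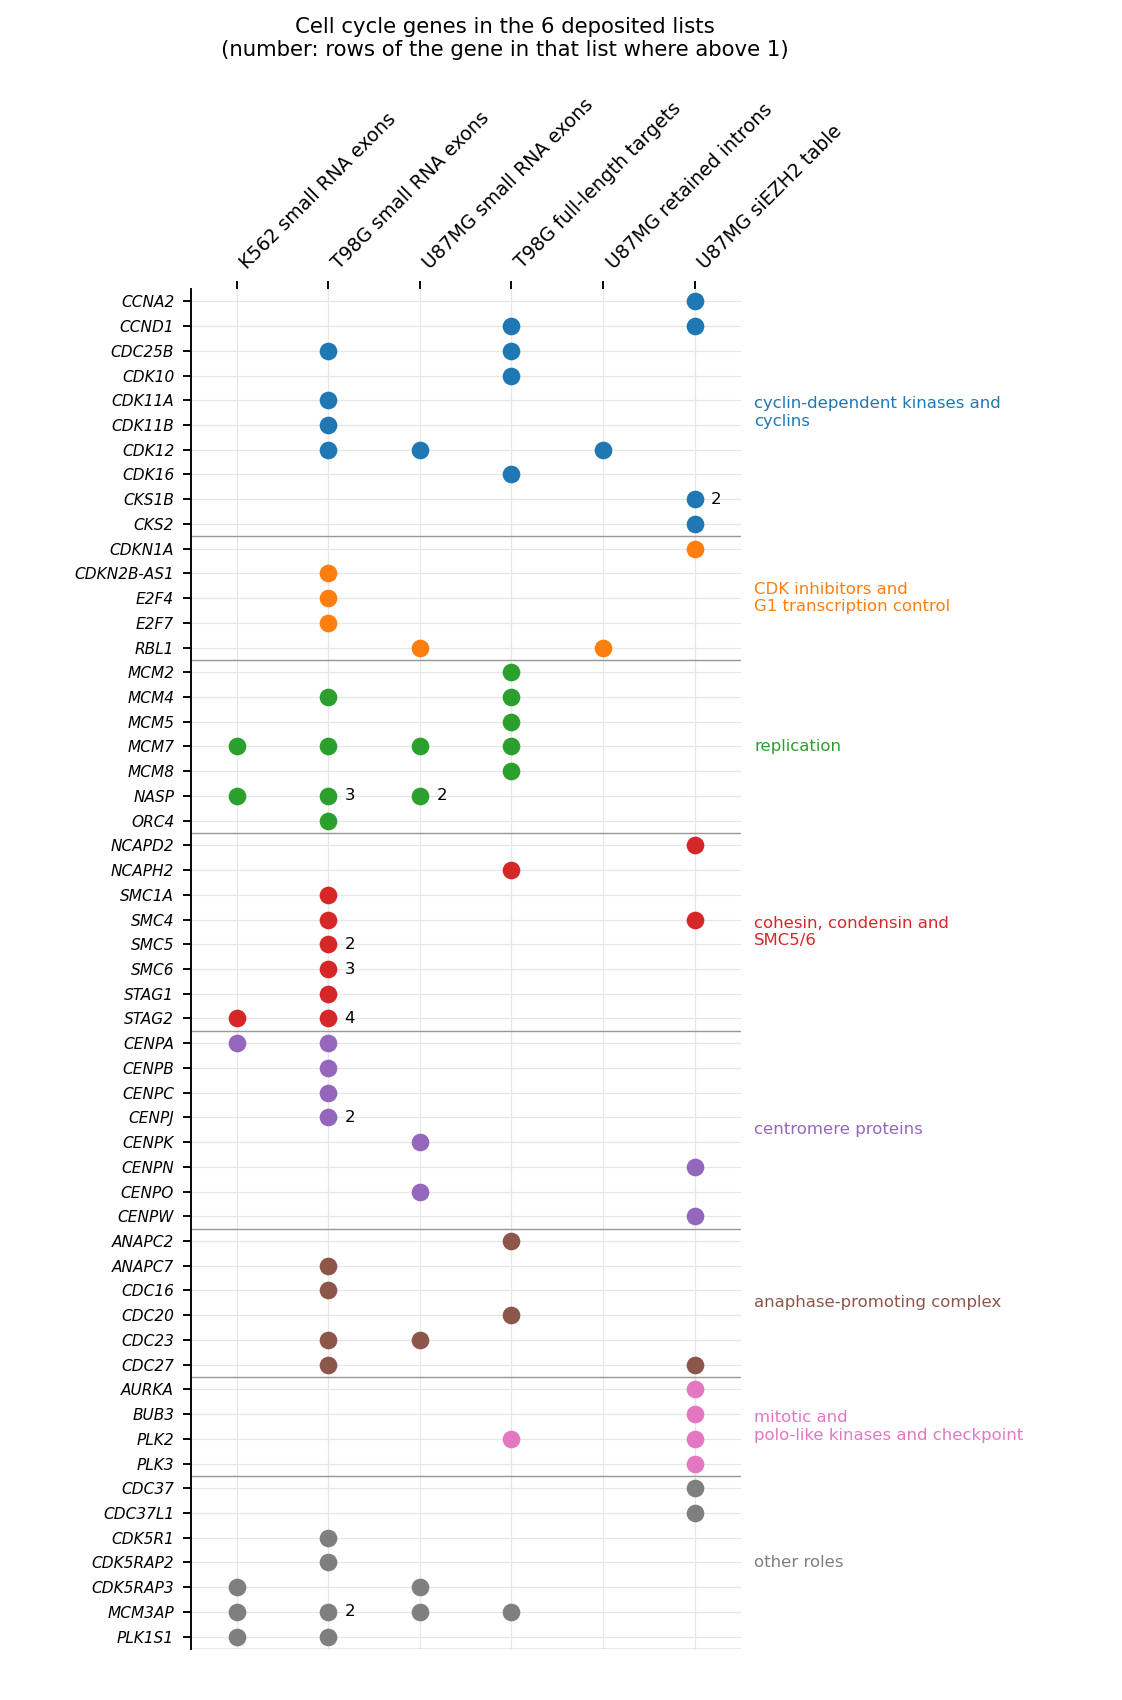
Each row is 1 of the 55 genes, ordered by role, and each column 1 of the 6 deposited lists; a filled circle means that the gene is listed, and a number beside it gives its rows in that list where there are several. The last group holds genes with other roles, CDC37 included, and CDKN2B-AS1 stands with the CDK inhibitors. MCM7 and MCM3AP have circles in 4 columns, and all 4 genes of the mitotic and polo-like kinase group have one in the siEZH2 column.

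Read the other way, the share of annotated family members that were listed lay above that of protein-coding genes at large. GENCODE release 44 has 20149 protein-coding symbols, of which 166 match the same name rule. Of the 166, 53 were in at least 1 list (31.9%, interval 24.9 to 39.6), against 17.8% of all protein-coding genes. In the T98G small RNA list the values were 27 of 166 (16.3%, 11 to 22.8) against 8.49%. They were 3.61% against 1.6% for the K562 list, 5.42% against 2.58% for the U87MG list, 8.43% against 4.27% for the full-length list, 1.2% against 0.169% for the introns, and 9.64% against 6.3% for the siEZH2 table. The lower bound of the interval was above the share of all genes for the T98G small RNA and full-length lists and for the lists joined, and below it for the K562 list, the U87MG list, the introns and the siEZH2 table. Genes silent in these lines are part of the 20149, and the part of expression level and transcript length in these shares was not tested. Of the 4083 listed symbols 3587 are among the 20149, and of the 55 cell cycle genes all but CDKN2B-AS1 and PLK1S1. Listed genes that are noncoding or now carry another symbol drop out, and the effect of this on the shares was not tested.

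**Figure D2:**
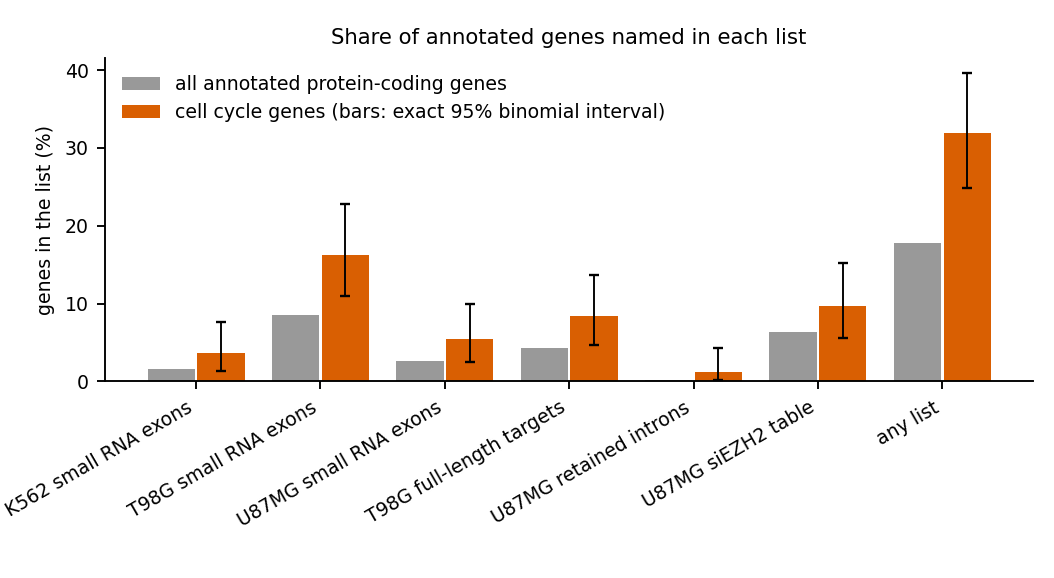
The percent of annotated genes named in each list, for all protein-coding genes (grey) and for the 166 that match the cell cycle name rule (orange, with exact 95% binomial intervals). The orange bar is the higher of each pair, and for the lists joined it stands at 31.9% against 17.8%.

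All 7 replication genes were RNA targets, that is, in a list other than the siEZH2 table. So were 43 of the 55 cell cycle genes (78.2%) and 74.6% of all listed genes. Exon numbers here and below name the canonical exon that a row overlaps, and the row need not have the same ends. MCM7, a subunit of the replicative helicase, was called at 1 and the same coding exon in K562, T98G and U87MG: exon 8 of 15, chr7:99695457-99695571 on the minus strand (hg19, as in all deposited lists), 115 bases wide. It was also a full-length target in T98G (chr7:99690351-99699563). NASP, a chaperone of histones H1 and H3, was the other replication gene called in all 3 lines. Its shared region, chr1:46074972-46078920 on the plus strand, is 3949 bases wide and overlaps exon 7 of 15, with 2.03% of its bases in the coding sequence of the canonical transcript. T98G had 2 further NASP exons: exon 5 (chr1:46072154-46072352) and exon 8 (chr1:46079768-46079853), and exon 8 was also called in U87MG. MCM4, another helicase subunit, was called at exon 12 of 17 in T98G and was a full-length target. MCM2 and MCM5 of the same helicase and MCM8, of a related complex that acts in recombination, were full-length targets alone, while ORC4, an origin recognition subunit, had 1 T98G exon (exon 6 of 14). Of the 10 annotated MCM symbols 6 were listed, MCM3AP included; MCM3, MCM6, MCM9 and MCM10 were not.

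The exons that recur between lines are shown as sequence because they are the same bases in each line. The MCM7 exon found in all 3 lines and the CENPA exon found in K562 and T98G (chr2:27014999-27015108, plus strand) are printed whole. They run 5′ to 3′ on the RNA strand from GRCh37, with capitals on AGAT. This word begins the ligated 3′ adapter of some small RNA kits for Illumina sequencing (general knowledge, not in the labels).
MCM7 exon 8: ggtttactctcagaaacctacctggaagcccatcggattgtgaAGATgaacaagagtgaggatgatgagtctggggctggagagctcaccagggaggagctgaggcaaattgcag
CENPA exon 2: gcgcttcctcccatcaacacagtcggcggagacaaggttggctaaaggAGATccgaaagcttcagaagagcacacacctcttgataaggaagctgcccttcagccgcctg
Each holds AGAT at 1 place. Neither place is 11 to 15 bases downstream of the T98G peak, the spacing taken up further on.

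The cohesin, condensin and SMC5/6 group had 8 listed genes, 6 of them with T98G exons. STAG2, a cohesin subunit on the X chromosome that is recurrently mutated in several cancers, glioblastoma among them, had 4 T98G exons: exon 9 (chrX:123181204-123181355), exon 16 (chrX:123195074-123195191), exon 20 (chrX:123197698-123197901) and exon 33 of 35 (chrX:123227763-123227994), all on the plus strand. Exon 33 was called in K562 too, with the same ends. Of all T98G genes, 38 (1.86%) had at least 4 called exons. Its paralogue STAG1 had 1 T98G exon (exon 15 of 34). SMC6, of the SMC5/6 complex that handles recombination intermediates, had 3 T98G exons on the minus strand: exon 4 (chr2:17922879-17922996), exon 11 (chr2:17902207-17902305) and exon 24 of 28 (chr2:17864905-17865030). Its partner SMC5 had exons 14 and 15 of 25 (chr9:72933430-72933603 and chr9:72933710-72933879), a neighbouring pair. SMC1A of cohesin had exon 10 of 25. SMC4 of condensin had exon 11 of 24 (chr3:160135412-160135744) and was also in the siEZH2 table, as was NCAPD2, a condensin I subunit in no list of RNA targets. NCAPH2 of condensin II was a full-length target alone.

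Called exons were no denser in cell cycle genes than in other T98G genes. Of the 29 T98G genes, 6 had at least 2 called exons (20.7%), against 20.5% of all T98G genes. These were STAG2 with 4, NASP and SMC6 with 3, and SMC5, CENPJ and MCM3AP with 2. Exons of 1 gene come from the same transcripts and are not independent.

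**Figure D3:**
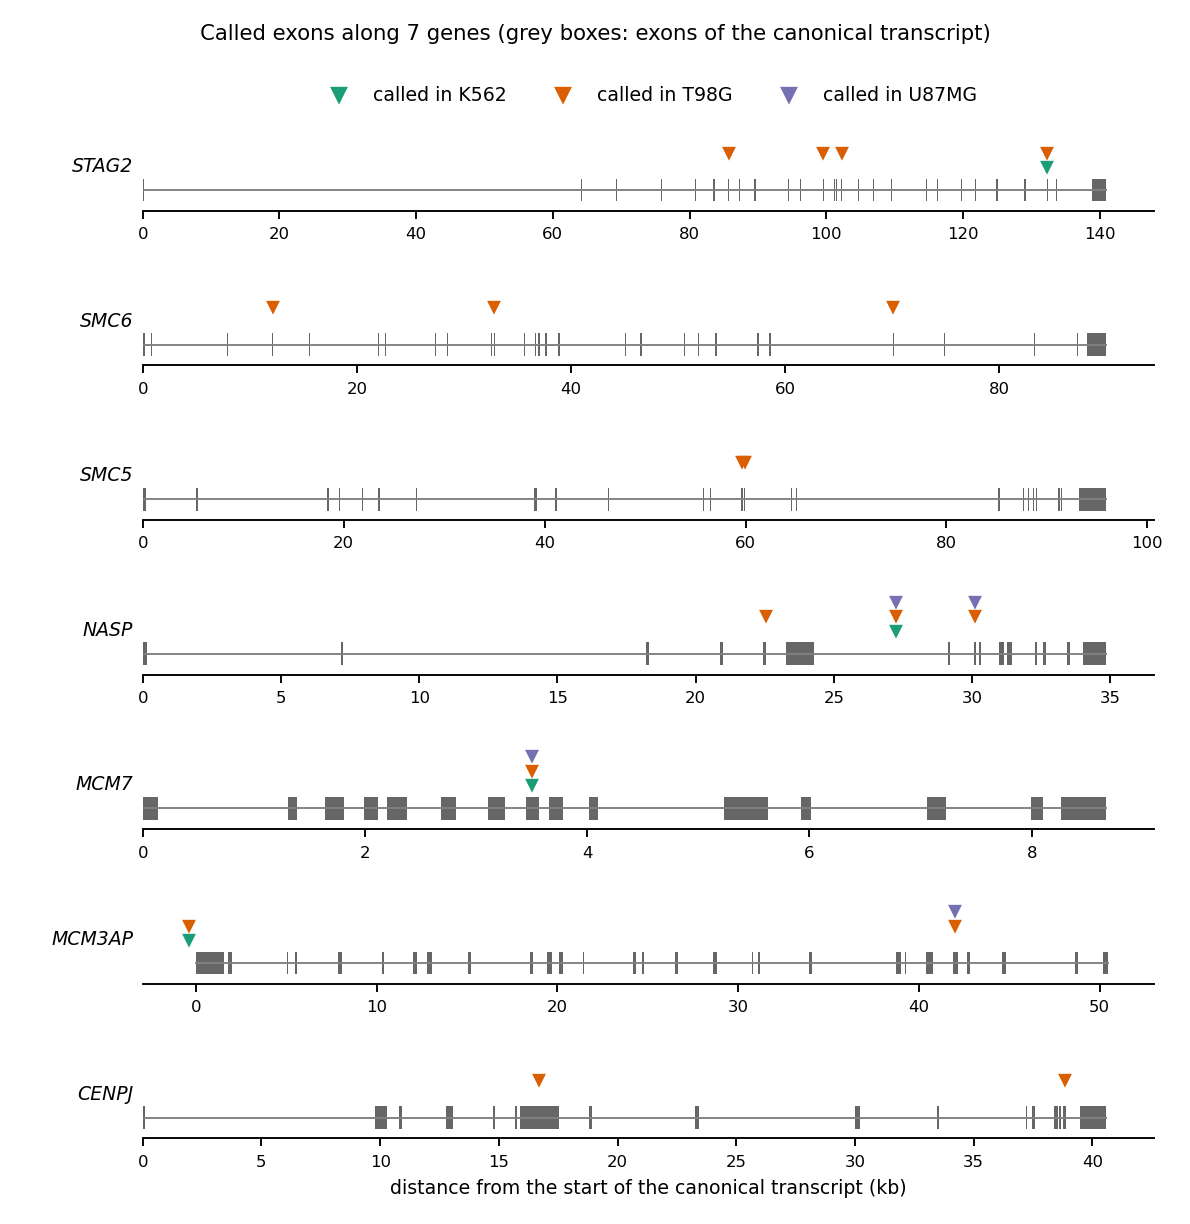
Called exons (triangles, coloured by line) along 7 genes, with the exons of the canonical transcript as grey boxes and the distance from its start in kb on each axis. In STAG2 and SMC6 the T98G calls are spread along the gene, in MCM7 the 3 lines mark 1 exon, and in MCM3AP a row called in K562 and T98G lies before the canonical start.

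The CENP genes were listed in all 3 lines. CENPA, the histone H3 variant that marks centromeres, was called at exon 2 of 5 in K562 and T98G. CENPB, which binds a satellite DNA box, CENPC, which binds CENPA nucleosomes, and CENPJ, a centriole protein in spite of its name, were called in T98G. The CENPJ exons were exon 7 (chr13:25479484-25481098) and exon 16 of 17 (chr13:25458101-25458221), on the minus strand. U87MG alone had CENPK (exon 3 of 11) and CENPO (exon 4 of 8), both of the inner kinetochore network. CENPN and CENPW of the same network were in no list of RNA targets and were in the siEZH2 table. Of 25 annotated CENP symbols 8 were listed.

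Of the anaphase-promoting complex, 4 subunits had T98G exons: ANAPC7 (exon 7 of 11), CDC16 (exon 17 of 18), CDC23 (exon 10 of 16) and CDC27 (exon 12 of 19). The CDC23 exon, chr5:137528193-137528346 on the minus strand, was also called in U87MG with the same ends. The CDC27 exon is chr17:45219210-45219391. ANAPC2, the cullin subunit, and CDC20, the activator that the spindle checkpoint holds back, were full-length targets alone.

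Among CDK and cyclin genes, the kinases in the small RNA and full-length lists were CDK10, CDK11A, CDK11B, CDK12 and CDK16, none of them a core kinase of the cycle. CDK12, which phosphorylates RNA polymerase II, was called at exon 12 of 14 in T98G (chr17:37680927-37681138) and at exon 2 in U87MG (chr17:37627132-37628016), and was in the retained intron list. CDK11A and CDK11B, near-identical neighbours on chromosome 1, were each called in T98G, at chr1:1637078-1637171 and chr1:1573862-1573952. All 91 aligned bases of the pair of exons are identical, so reads from one cannot be told from reads from the other, and the pair may count as 1 target. CDC25B, a phosphatase that activates CDKs, had a T98G row that overlaps exon 12 of 16 (chr20:3783377-3783619), with 25.9% of its bases coding. CDC25B was also a full-length target (chr20:3767578-3786762). CDK10, CDK16 and CCND1 (cyclin D1) were full-length targets without a called exon. Of the G1 regulators, E2F4 and E2F7, both mainly repressors, had 1 T98G exon each, and RBL1, the RB relative p107, had exon 6 of 22 in U87MG (chr20:35695127-35695287) and a retained intron. CDKN2B-AS1, a long noncoding RNA of the CDK inhibitor locus, had 1 T98G row outside the exons of its canonical transcript.

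The core kinases CDK1, CDK2, CDK4 and CDK6 and the cyclins B and E were in none of the 6 lists. A gene that is not listed may have been measured without reaching the authors' threshold, and its values were not used here.

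The genes matched by name only made up 3 of the 7 K562 genes. MCM3AP, a factor of mRNA export, was called at a 599-base row outside canonical exons in K562 and T98G (chr21:47705613-47706211), at exon 24 of 28 in T98G and U87MG (chr21:47663379-47663636), and as a full-length target. PLK1S1, a centrosome protein, had exon 5 of 14 in K562 and T98G (chr20:21142512-21143148). CDK5RAP3 had exon 9 in K562 (chr17:46053827-46054188) and exon 14 in U87MG (chr17:46058803-46059140), so the 2 lines shared the gene and not the exon. CDK5RAP2, a centrosome protein, and CDK5R1, the activator of the neuronal kinase CDK5, had 1 T98G exon each.

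Where cell cycle exons were shared between lines, they had identical ends. The rows are annotated exons, so these ends come from the annotation and not from the reads. Of the 7 K562 cell cycle exons, 6 were also in the T98G list (85.7%, 42.1 to 99.6), against 45.6% of all K562 exons, and these 6 were 15.4% of the 39 T98G exons, against 7.03% of all T98G exons. They are the exons of CENPA, MCM7, STAG2, NASP, MCM3AP and PLK1S1 given above. Of the 10 U87MG exons, 5 were in the T98G list (50%, 18.7 to 81.3), against 65% of all U87MG exons, and these were 12.8% of the T98G exons, against 16.9%. They lie in CDC23, MCM7, NASP (both U87MG rows) and MCM3AP. K562 and U87MG shared the MCM7 and NASP exons, 28.6% of the K562 and 20% of the U87MG exons, against 19.9% and 11.8% of all. In all 6 of these comparisons the share of all exons lay inside the interval of the cell cycle exons, so none of them differed detectably at these numbers. Joined over the lines, there were 45 distinct regions, of which 30 were called in T98G alone.

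Widths varied from 86 to 3949 bases. The median was 362 bases in K562, 199 in T98G and 298 in U87MG, against 188, 187 and 166 over all rows of those lists. In T98G, 22 of the 39 rows were wholly coding (56.4%) and 54.2% of all rows were. Another 15 were partly coding (38.5%, against 34.3% of all rows). The coding share was 27.9% for the ANAPC7 row, 26.1% for CDC16 and 43.4% for ORC4, whose ends differ from those of the canonical exon.

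The full-length list allows the small RNA calls to be set beside calls on long RNA of the same line. Of the 29 T98G small RNA genes, 4 were full-length targets (13.8%; CDC25B, MCM3AP, MCM4 and MCM7), against 10.3% of all T98G small RNA genes. Seen from the other list, these 4 were 28.6% of the 14 full-length genes, against 22.7% of all full-length genes. The other 10 were ANAPC2, CDC20, CDK10, CDK16, MCM2, MCM5, MCM8, NCAPH2, CCND1 and PLK2. All 3 MCM names of the T98G small RNA list, MCM3AP included, were thus full-length targets too, and MCM2, MCM5 and MCM8 were full-length targets without a T98G exon.

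The T98G small RNA list is the one whose deposited score column could be read as a peak position for each exon. That the score is a signed distance between exon middle and peak middle was inferred from the values. The peak positions and word shares below depend on this reading and on its sign. Either sign puts a peak equally far from the exon middle, so the exon ends cannot fix the sign. The sign was not tested apart from the words, so the word spacing below is a description. All 39 rows gave a usable peak position, which lay just outside the exon's ends for CENPJ exon 16 and SMC5 exon 15. The peak middle lay in coding sequence in 31, in an intron of the canonical transcript in 5 (ANAPC7, ORC4, and 1 row each of CENPJ, NASP and SMC5), in a 3′ UTR in 1 (E2F7) and outside canonical exons in 2. The median distance from the peak to the exon's 3′ end was 73 bases.

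Over all 2463 usable T98G peaks, AGAT started 11 to 15 bases downstream of the peak middle in 25.8%. In the cell cycle peaks it did so in 7 of 39 (17.9%, 7.54 to 33.5), and at a window placed 20 bases further downstream in 2 of 39 (5.13%), against 3.41% of all peaks. The interval of the 39 peaks holds the value of all peaks, so no difference was detectable with 39 peaks. The start was at position 11 in 5 of the 7 and at position 12 in 2. The windows of 6 of the 7 are printed because they show what lies at that spacing. Each holds 15 bases before the peak middle and 45 after it, with capitals on AGAT and on those of the next adapter bases that also match.
CDC23 (chr5:137528195-137528254, minus): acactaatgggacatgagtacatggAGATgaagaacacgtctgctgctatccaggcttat
E2F4 (chr16:67226949-67227008, plus): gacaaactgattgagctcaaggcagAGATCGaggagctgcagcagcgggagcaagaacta
NASP exon 5 (chr1:46072233-46072292, plus): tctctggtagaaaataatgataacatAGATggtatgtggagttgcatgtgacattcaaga
NASP exon 8 (chr1:46079812-46079871, plus): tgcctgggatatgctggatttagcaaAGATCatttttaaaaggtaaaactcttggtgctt
PLK1S1 (chr20:21142839-21142898, plus): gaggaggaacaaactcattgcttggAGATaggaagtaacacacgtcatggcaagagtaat
STAG2 exon 33 (chrX:123227867-123227926, plus): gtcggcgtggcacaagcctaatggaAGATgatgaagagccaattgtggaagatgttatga
The match was 4 bases long in most of these windows. It reached 5 bases (AGATC) in E2F4, MCM4 and NASP exon 8, and 6 bases in E2F4 and MCM4, that is, in 2 of 39 peaks (5.13%) against 4.59% of all. The seventh peak is that of MCM4. The NASP exon 8 window runs past the end of the exon. The windows of NASP exon 5 and STAG2 exon 33 lie inside the called rows but are not wholly coding sequence of the canonical transcript.

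A second look went downstream of that spacing. Every 4-base word was ranked by how much more often it started 16 to 28 than 36 to 48 bases downstream of the 2424 T98G peaks outside the cell cycle genes. The word at rank 1 was CGGA, at 8.87% against 1.65%, and it was in 2 of the 39 cell cycle peaks (5.13%, 0.627 to 17.3). TCGG at rank 2 was at 5.98% against 1.4%, and in 1 of the 39 (2.56%, 0.0649 to 13.5). The word at rank 3 was GCAC, at 17% against 4.08%. It was in 10 of the 39 cell cycle peaks (25.6%, 13 to 42.1) and in none of them 36 to 48 bases downstream. The word at rank 4, GAAG, was at 39.1% in the other peaks and in 17 of 39 (43.6%, 27.8 to 60.4). The word at rank 5, GAGC, was at 23.2% and in 13 of 39 (33.3%, 19.1 to 50.2). All 5 intervals hold the share of the other peaks. This window was set, and GCAC chosen for printing, after the ranked words and the cell cycle windows had been seen, so the shares are a description. From general knowledge, each of these words is a stretch of the same 3′ adapter further on from AGAT. A match is a match of letters, and whether priming occurred at any of these places was not tested.

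The GCAC windows are printed from 6 to 35 bases downstream of the peak middle, to show the bases around the word. They were chosen by where the word starts, so its distance is fixed within that range. CDK11A and CDK11B share their sequence and are not independent, and SMC4, SMC5 and SMC6 are relatives.
CDC25B (chr20:3783569-3783598, plus): cagacagtagacggaaaGCACcaagacctc
CDK11A (chr1:1637110-1637139, minus) and CDK11B (chr1:1573891-1573920, minus): gaacaggatcgaggaggGCACctatggagt
CDK5R1 (chr17:30815547-30815576, plus): aggcctggatcggtgaGCACtgtagcctgc
CENPJ exon 7 (chr13:25479641-25479670, minus): aaaacaataaaaaggaagattGCACcagtc
SMC4 (chr3:160135536-160135565, plus): tcagcaaatcggtaaatgaaGCACgttcaa
SMC5 exon 15 (chr9:72933893-72933922, plus): tattcaggggggagaGCACaaattactgta
SMC6 exon 24 (chr2:17864925-17864954, minus): ctgggagaaatcatggaGCACagattcaag
STAG2 exon 20 (chrX:123197723-123197752, plus): tccggaatattgtagagaaGCACacagata
The word started at position 23 in 4 of these peaks and once each at 6 other positions from 21 to 27. The SMC5 window lies past the exon's end. The tenth peak is that of E2F7. None of the 10 had AGAT 11 to 15 bases downstream.

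**Figure D4:**
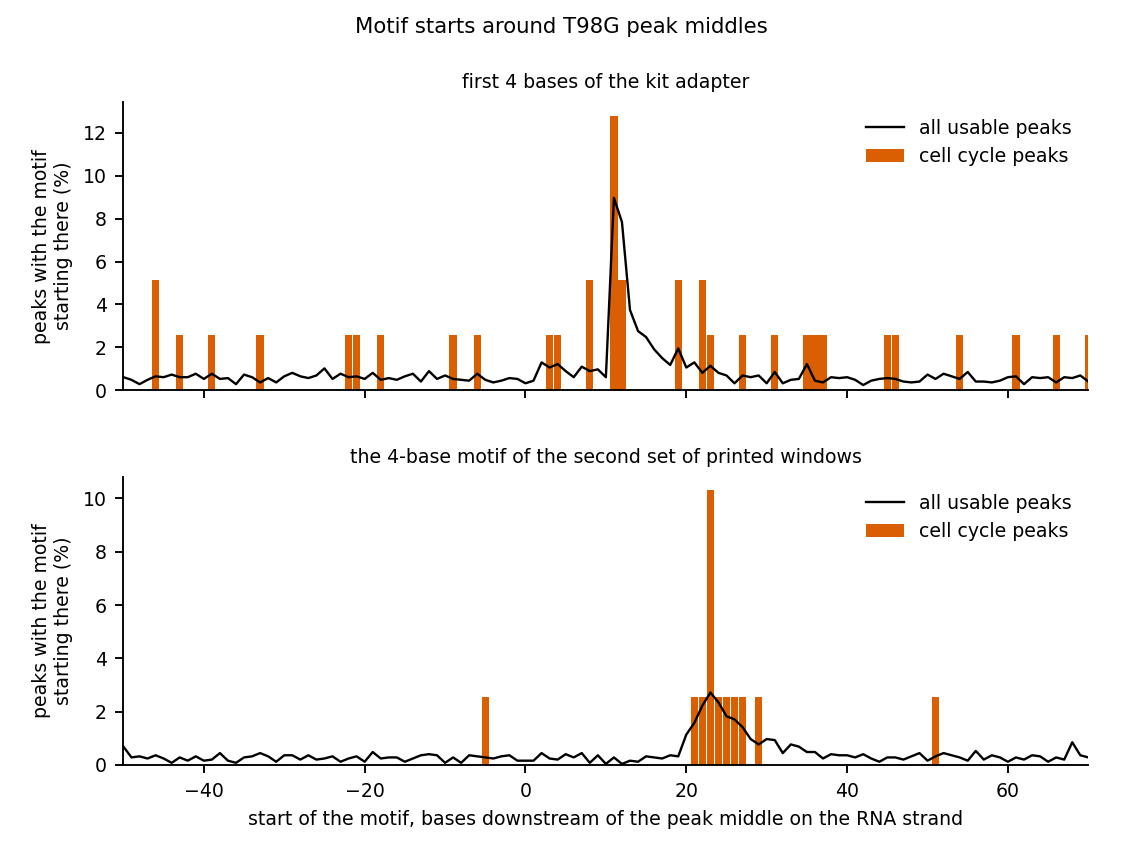
The percent of T98G peaks at which a 4-base word starts at each position along the RNA, counted in bases from the peak middle, for AGAT (upper panel) and for GCAC (lower panel); orange bars are the 39 cell cycle peaks and the black line all 2463 peaks. Both word profiles have their highest bar where the line is highest, at 11 for AGAT and at 23 for GCAC.

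Over whole exons the share of the longer word AGATCG was near that of each list at large where it was found. It was on the RNA strand in 4 of 39 T98G exons (10.3%, 2.87 to 24.2; CENPB, E2F4, MCM4 and SMC6), against 10.6% of all T98G exons, and on the opposite strand in 2 (5.13%), against 2.99% of all. None of the 7 K562 exons held it (upper bound 41%), against 7.81% of all, and none of the 10 U87MG exons (upper bound 30.8%), against 10.8%.

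The siEZH2 table asks which genes differed when EZH2 was targeted in U87MG. By the authors' DESeq2 call at an adjusted p under 0.05, 11 of the 16 listed cell cycle genes were higher in the authors' deposited table and 5 were lower (68.8% higher, 41.3 to 89), against 49.2% of the table's 1341 genes. The interval holds the share of the whole table, so no difference was detectable with 16 genes. The median log2 fold change of the 16 was 0.69, against -0.47 in the whole table. The table has a gap around 0, so this median follows the split in direction. Among genes that were higher the median was 0.88, against 1.01 in the whole table. Among genes that were lower it was -1.06, against -0.74. A change of at least 1 on the log2 scale in either direction was seen in 7 of 16 (43.8%), against 34.8% of the table. The direction, siEZH2 over siGFP, was inferred from the order of the names and could not be checked. Were it the other way round, 5 of the 16 would be higher and 11 lower, and every rise and fall below would change places. The table has no standard errors, the values come from 2 libraries per arm, and a changed share of cells in a cycle phase cannot be told apart from changed RNA per cell.

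In the authors' deposited table AURKA, the kinase of spindle poles, rose most of the 16, with a log2 fold change of 1.41 (2.67-fold), which placed it 91 of the 660 genes that rose. CCNA2, cyclin A2 of S and G2 phase, rose by 1.30 (2.47-fold). CKS1B and CKS2, small subunits that bind CDKs, rose by 1.18 and 0.74 on the log2 scale; CKS1B has a second row elsewhere in the genome, and the row of the wider region was used. The authors' deposited table gave 1.04 for CENPW and 0.86 for CENPN of the inner kinetochore. Condensin subunits NCAPD2 and SMC4 rose by 0.94 and 0.88. BUB3, of the spindle checkpoint, rose by 0.63, PLK2 by 0.59 and CDC27 by 0.54. The highest of these 11 is thus 2.67-fold and the lowest 1.46-fold.

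The genes that fell include a CDK inhibitor and a G1 cyclin. CDKN1A, the CDK inhibitor p21 (chr6:36644305-36655116), fell by 1.68 on the log2 scale in the authors' deposited table, 3.2-fold, and only 6 of the 681 genes that fell did so by more. PLK3, a stress-responsive polo-like kinase, fell by 1.14 (2.2-fold), and CCND1, cyclin D1, by 1.06 (2.08-fold). The other 2 are CDC37, a cochaperone of kinases, at -0.70, and its relative CDC37L1, at -0.72. The polo-like kinases thus moved apart, PLK2 higher and PLK3 lower, as did the cyclins CCNA2 and CCND1.

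**Figure D5:**
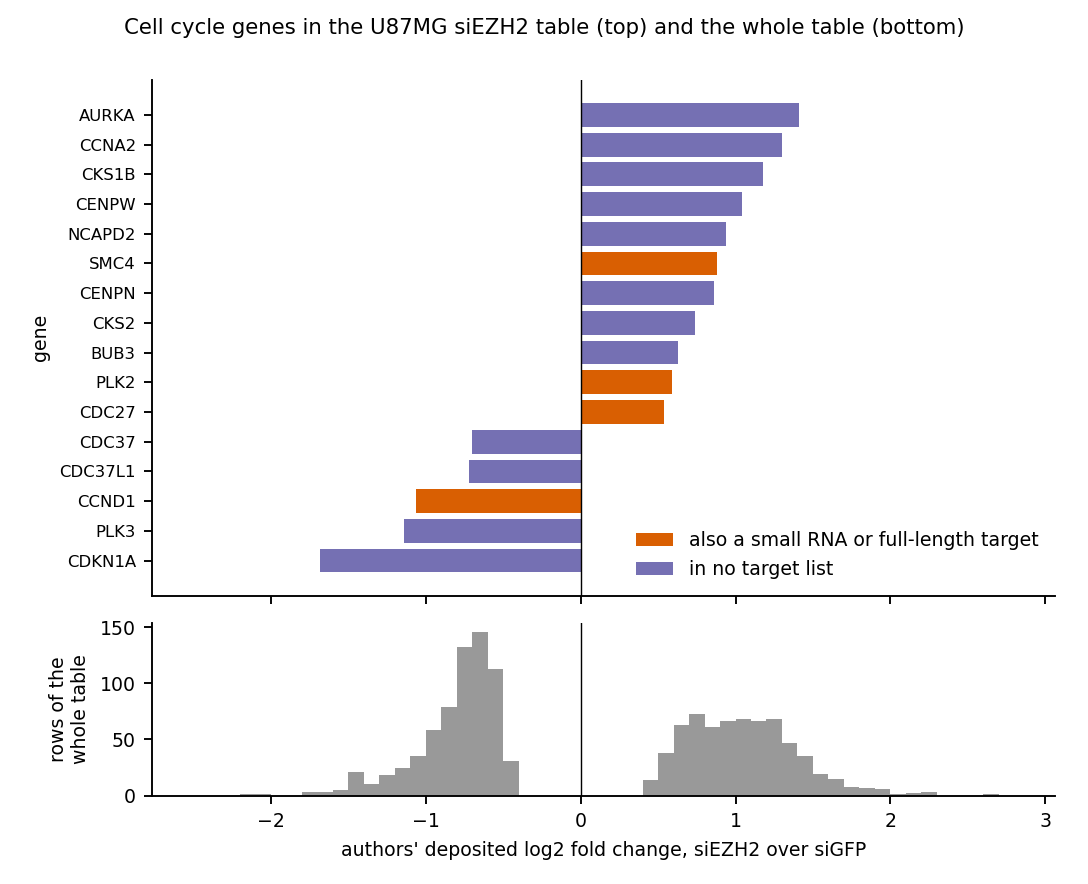
The authors' deposited log2 fold change, siEZH2 over siGFP, of the 16 listed cell cycle genes (upper panel) and a histogram of the whole table (lower panel); orange bars are genes that are also a small RNA or full-length target in T98G. The bars run from 1.41 for AURKA to -1.68 for CDKN1A, and the gap around 0 in the histogram is where genes did not pass the authors' threshold.

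Of the 16, 4 were also RNA targets in T98G. CDC27 and SMC4 had a small RNA exon (12.5% of the 16, against 14.7% of the table) and were both higher, while 25.4% of the 197 table genes in that list were higher. CCND1 and PLK2 were full-length targets (12.5%, against 8.28%), the first lower and the second higher, while 15.3% of the 111 table genes in that list were higher. None of the 16 had a small RNA exon in U87MG, the line in which the siRNA was used, or in K562; 5.22% and 3.95% of the table's genes did, which is under 1 gene in 16.

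Promoters are given for the genes of the siEZH2 table. A cell cycle gene is often controlled through a CHR element (letters TTTGAA) near its start, bound by the DREAM and MuvB complexes, with CCAAT boxes close by. RefSeq promoters (GRCh38.p14, first listed start, 250 bases before to 50 after it) matched 9 of the 11 genes that rose and 3 of the 5 that fell; the others are AURKA and BUB3, and CCND1 and CDC37L1. On either strand TTTGAA was in 5 of the 9 (55.6%, 21.2 to 86.3), namely CENPN, CKS1B, CKS2, NCAPD2 and SMC4. Of the 506 genes of the table that rose and had a matched promoter 15.8% held it, as did 15.4% of all promoters. CCAAT was in 7 of the 9 (77.8%, 40 to 97.2), against 39.1% and 35.7%. Neither was in any of the 3 (upper bound 70.8%). Of the 516 genes that fell and had a matched promoter, 7.17% held TTTGAA and 37% CCAAT, so no difference was detectable with 3 promoters. The words were picked with the siEZH2 values known, and a match is not a bound site. Cell cycle genes outside the siEZH2 table were not set apart for comparison. Whether the words go with the rise, beyond being common in cell cycle promoters, was therefore not tested. The last 110 bases before the start are shown for the 3 genes with TTTGAA there, with capitals on both words (TTCAAA and ATTGG are the same words on the other strand).
CKS1B (GRCh38.p14 chr1:154974571-154974680, plus): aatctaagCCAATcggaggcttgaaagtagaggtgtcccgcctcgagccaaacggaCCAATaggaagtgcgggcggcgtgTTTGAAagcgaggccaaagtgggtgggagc
CKS2 (GRCh38.p14 chr9:89311085-89311194, plus): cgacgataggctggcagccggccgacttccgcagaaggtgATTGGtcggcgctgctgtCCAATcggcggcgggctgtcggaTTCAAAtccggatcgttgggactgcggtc
SMC4 (GRCh38.p14 chr3:160399540-160399649, plus): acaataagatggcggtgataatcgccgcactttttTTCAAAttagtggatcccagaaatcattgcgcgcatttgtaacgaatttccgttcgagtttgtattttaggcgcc
In the paralogues CKS1B and CKS2 the CHR word begins at nearly the same place, at position -30 and position -29 from the start, on opposite strands, with CCAAT words before it. In SMC4 it begins at position -75.

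A wider list of 108 cell cycle symbols outside these families, drawn up with earlier results known, was read the same way. The 108 symbols hold old and new names of some genes, such as SGOL2 and SGO2, so they stand for fewer genes. In any of the 6 lists 40 of the 108 symbols were named, where 17.8% of all protein-coding genes were. That second share was matched to the symbols of the annotation only. The authors' deposited table held 11 of them, 9 higher and 2 lower, where 49.2% of the whole table were higher. All 7 listed genes of the mitosis and kinetochore group were higher: KIF11, a spindle motor, at 1.34, CIT, a kinase of cytokinesis, at 1.20, MAD2L1, of the spindle checkpoint, at 1.20, SPC24 at 1.18, CDCA8 at 1.17, SGOL2 at 1.01 and ECT2 at 0.88. Of these, CIT and KIF11 were also small RNA targets, CIT with 2 exons in U87MG and 1 each in K562 and T98G, KIF11 with 1 K562 exon and 2 T98G exons. Of the replication group RFC3 (0.92) and DBF4 (0.68) were higher and RPA2 (-0.51) lower. In the checkpoint group TFDP1, the partner of E2F factors, was lower (-0.56). Among RNA targets ATM, the kinase that signals DNA breaks, had 6 T98G exons, 2 U87MG exons and 1 K562 exon and was a full-length target, and the cohesin regulator PDS5A had 3, 1 and 2 exons in those lines.

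Both retained introns followed a called exon. In the authors' list the score, whose scale is not stated, was 1.57 for RBL1 and 1.49 for CDK12, in a list that ranges from 1.03 to 2.68 with a median of 1.41. The RBL1 intron (chr20:35693875-35695128, minus) is 1254 bases wide and the CDK12 intron (chr17:37628015-37646811, plus) 18797 bases. In each gene the U87MG exon lies directly upstream and overlaps the listed intron by 2 bases. The junctions are shown as 30 exon and 30 intron bases, with capitals on the first bases of the intron, the GT of a 5′ splice site.
RBL1 (chr20:35695097-35695156, minus): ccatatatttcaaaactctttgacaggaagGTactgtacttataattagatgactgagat
CDK12 (chr17:37627987-37628046, plus): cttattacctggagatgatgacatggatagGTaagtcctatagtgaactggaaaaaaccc
The list was made of introns near a called exon, so this position comes from how the list was built.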

How the data were processed

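Small RNA, long RNA, iCLIP and siRNA libraries entered 6 lists that the authors deposited in hg19 coordinates, and CASAVA 1.8 and DESeq2 are named in the submitters' processing notes. Per the labels, the authors trimmed reads with cutadapt, called small RNA exons with DESeq2 on exon counts and peaks with pyicoclip, and counted siRNA reads per gene without strand. The siEZH2 values are log2 fold changes as the authors deposited them, siEZH2 over siGFP by the order of names. The T98G distance and the intron score are score columns as deposited. Reading the first as exon middle minus peak middle was inferred from the values, and its sign was not tested apart from the words. The value columns of the other lists equal the number of names in the row, as tested on the deposited files, and were not used. Columns that hold values of a single library numbered 0, so replicates could not be compared and it is not known how far they were separate cultures.

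Members were matched by symbol and every member is named. Exon coordinates or log2 fold changes are given for genes in the siEZH2 or intron lists, in both the full-length and a small RNA list, in 2 or more small RNA lists, or with 2 or more called exons in 1 list. The members, gene lists and words were chosen with earlier results of these data known. Exons were placed on GENCODE release 44 (GRCh37 mapping) with a minimum overlap of 1 base. Peaks off a whole base boundary were left out (2463 of 2573 rows kept). Scripts used Python 3.11.15, pandas 2.3.3, SciPy 1.17.1, pysam 0.24.0 and matplotlib 3.10.9. The name rule was checked on made-up names, and a copy of the word search on made-up sequences. Alternatives changed 1 choice at a time. Depth is unknown.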

Additional observations from a re-analysis of the deposited data

How the results depend on the processing

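Of 35 alternatives over 22 results, 30 left the value within its margin and 5 moved it. Leaving out genes matched by name only took the K562 genes from 7 to 4. Reading the T98G distance with the other sign took the share of peaks with AGAT 11 to 15 bases downstream from 17.9% to 5.13%, and that with GCAC 16 to 28 bases downstream from 25.6% to 2.56%; the GCAC alternatives were added after seeing the data. Limiting rows to internal coding exons took the median width from 362 to 115 bases in K562 and from 298 to 158 in U87MG, since long rows are left out. The share of listed cell cycle genes that were higher under siEZH2 was 57.1% at a log2 change of at least 1, 70.6% over every row and 73.3% without name-only genes, against 68.8%. No paired analysis was possible because the lists hold no values per library, and leaving out a replicate was not possible for the same reason. The lists give calls without depth, so a gene that is not listed cannot be called unbound or unchanged, and with 39, 10 and 7 exons only large differences from the other exons would be detectable.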
